A study of Homo sapiens with 8 samples.

Results

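BCBL1 is a human cell line grown from a primary effusion lymphoma, a B-cell tumour of the body cavities whose cells carry the Kaposi sarcoma herpesvirus. Its response to lenalidomide was read from 4 of the 8 bead arrays of the series, taken by line and treatment as the columns are labelled: 2 arrays of cells given 5 µM lenalidomide and 2 of cells given the solvent DMSO. The 4 remaining arrays hold the same treatment and solvent in BC3, a second line of this tumour, and enter only where the lines are compared. The medium was the same in both groups apart from the added agent, and how long the cells were exposed is not given here. The series text calls the arrays of a group technical replicates, so each p-value measures the spread between arrays and not between cultures, and a single line stands for the tumour. In a bulk RNA sample, fewer cells of one kind and less RNA per cell cannot be told apart.

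Cereblon brings substrates to a ubiquitin ligase, and with lenalidomide bound it takes up the zinc finger proteins IKZF1 and IKZF3, which are then degraded. In tumours of late B cells these proteins help to maintain IRF4 and MYC, and they hold down interferon-stimulated genes. Cells of primary effusion lymphoma resemble plasmablasts, B cells on the way to the plasma cell, which have switched off most B-cell identity genes and depend on IRF4.

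Arrays a and b of a group are given in that order as deposited probe intensities. A change is the log2 value with lenalidomide minus that with DMSO, after background correction and quantile normalization, with ± for the standard error from limma (n = 2 arrays a group). Mean intensities were 603 and 631 on the lenalidomide arrays, against 685 and 717 on the DMSO arrays. Normalization puts all arrays on one distribution, so a fold change differs from a ratio of deposited intensities. An offset of 50 added before the log2 step shrinks the changes of dim genes. A probe counted as above background at an intensity over 138 to 149, depending on the array, which 47.5% to 49.9% of probes passed. Across the genes tested, r was 0.994 between the arrays of each BCBL1 group and 0.988 to 0.990 between treatments, as a description of genes that are not independent. Of 8 plasmablast markers on the array, 7 were above background on all 4 arrays, among them IRF4, PRDM1, XBP1, SDC1 and CD38. The exception was TNFRSF8, the antigen CD30. Of 6 markers of B-cell identity 4 were above background on both lenalidomide arrays and 3 on both DMSO arrays, and PAX5 on none. CD79A, CD79B and BCL6 were above background on all 4 arrays, at intensities of 150 to 243. The line thus carried most of the plasmablast markers, while the B-cell identity genes were not all off.

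Lenalidomide changed the level of 370 of 12864 genes in BCBL1 at a limma adjusted p under 0.05, or 2.88%. Each count of called genes in a list below is to be read beside this share. Of these, 276 were higher (2.15% of the genes tested) and 94 lower (0.731%), so that 74.6% of the changes were rises. The rises were also the larger changes: 61 genes rose at least 2-fold and 7 at least 4-fold, while 1 gene fell at least 2-fold. At 1.5-fold the counts were 208 and 57. The median called rise was 0.70 on the log2 scale and the median called fall -0.61, against a median of -0.0096 over all genes. The smallest change that was called was 0.47, and 2079 genes had an unadjusted p under 0.05. In each of the 370 genes the 2 lenalidomide arrays lay on 1 side of both DMSO arrays, which also held for 21.2% of all genes upward and 23.7% downward. Calls were most frequent at middle levels: in 4 equal groups of genes ordered from dim to bright by DMSO level, 1.49%, 4.2%, 3.73% and 2.08% were called.

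The balance of rises over falls turned when array medians were aligned instead, called median scaling here. The median change of all genes then moved to -0.105, and 141 genes were higher and 176 lower. In the other alternative ways of processing, 68.9% to 91.8% of the calls were rises. Median intensities of the BCBL1 arrays were 137 to 149, close to the background limits of 138 to 149. Each list median given below with median scaling is to be read beside the -0.105 of all genes. The number of calls also rested on each array. Without lenalidomide array a the counts were 150 higher and 50 lower, and without lenalidomide array b 126 and 23. Leaving out DMSO array a gave 149 and 28, and DMSO array b 147 and 45, where the lone array of a group was assumed to vary like the others. Fewer genes were also called lower without either BC3 DMSO array. Such fits redid the normalization, the background filter and the choice of probe, and all 8 arrays share one estimate of the spread. Which of these moved the count was not tested. Of 125 called genes named by rule, 58 kept their call in all 8 fits with an array omitted.

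**Figure D1:**
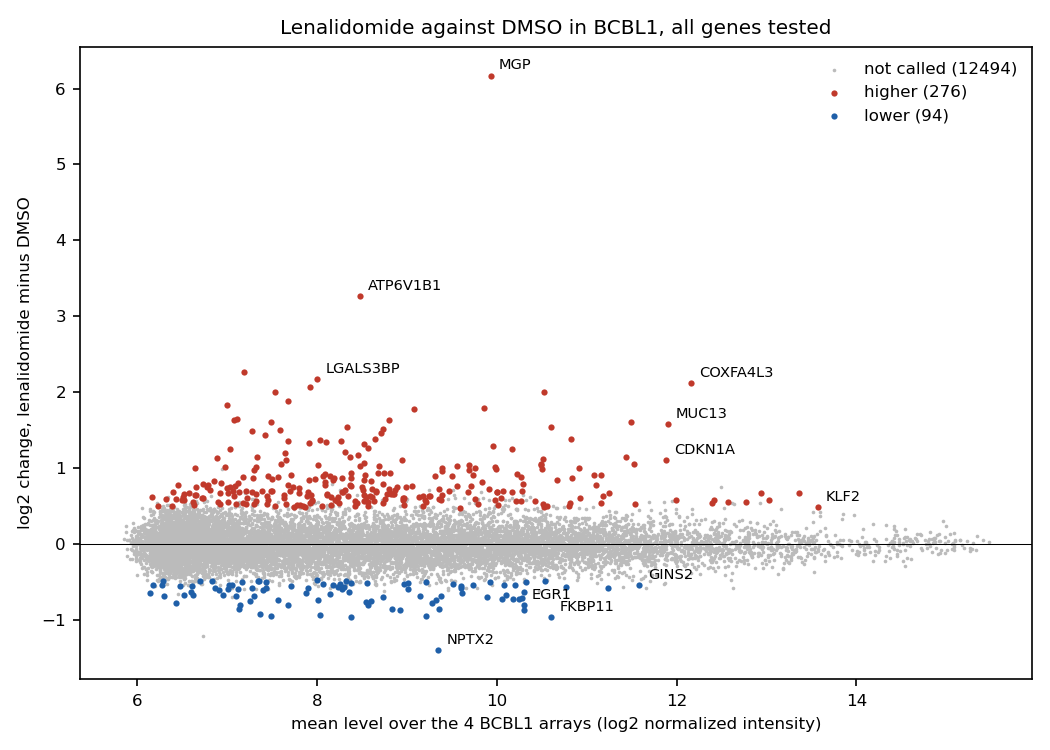
Change with lenalidomide in BCBL1 (log2, vertical axis) against the mean level over the 4 BCBL1 arrays (log2 normalized intensity, horizontal axis) for the 12864 genes tested. Red points are the 276 genes called higher and blue points the 94 called lower; the rises reach 6.17 at MGP, while the falls end at -1.41 at NPTX2.

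MGP had the largest change of all genes. It encodes matrix Gla protein, a secreted vitamin K dependent inhibitor of calcification. Its probe read 7683 and 7455 with lenalidomide, against 171 and 185 with DMSO, just over the background limit. The rise was 6.17 ± 0.13 on the log2 scale, or 72.0-fold (limma adjusted p = 1.10e-11). It ran from 5.57 without background correction to 7.17 on the authors' log2 values, so the fold depends on how the dim DMSO signal is treated. A second MGP probe gave 6.35, with DMSO intensities of 149 and 135, array b under its background limit.

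ATP6V1B1, the kidney and inner ear form of a catalytic-sector subunit of the vacuolar proton pump, read 1004 and 1053 with lenalidomide, against 169 and 187 with DMSO. It rose by 3.27 ± 0.14, or 9.62-fold (limma adjusted p = 3.15e-08). Both arrays of each group lay close together and the groups were far apart. No other of 19 tested subunits of the pump was called, and its widely expressed counterpart ATP6V1B2 had a value of -0.016 ± 0.11. The list had a median of 0.083, which turned to -0.049 with median scaling.

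COXFA4L3, also known as NMES1, encodes a small mitochondrial protein related to a subunit of cytochrome c oxidase. It was bright on every array, reading 8568 and 8819 with lenalidomide, against 2496 and 2236 with DMSO, and rose by 2.12 ± 0.13 (limma adjusted p = 2.06e-06). It was the 1 call among 58 tested respiratory chain subunits and relatives, whose median of 0.0021 turned to -0.146 with median scaling. FZD2, a Wnt receptor, read 4493 and 4794 with lenalidomide, against 1904 and 1667 with DMSO, a rise of 1.61 ± 0.13.

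DEPP1, a gene induced by FOXO factors, read 1778 and 1436 with lenalidomide, against 581 and 554 with DMSO, and rose by 1.78 ± 0.15. MTMR11, a phosphatase-like protein without catalytic activity, read 702 and 803 with lenalidomide, against 326 and 303 with DMSO, and rose by 1.63 ± 0.12. The protease gene PLAU, which encodes urokinase, read 335 and 339 with lenalidomide, against 176 and 156 with DMSO, a rise of 1.60 ± 0.15. As after normalization in every called gene, the groups did not overlap in these 3, and PLAU was the dimmest of them. Limma adjusted p values for the 3 lay between 1.04e-05 and 4.60e-05.

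**Figure D2:**
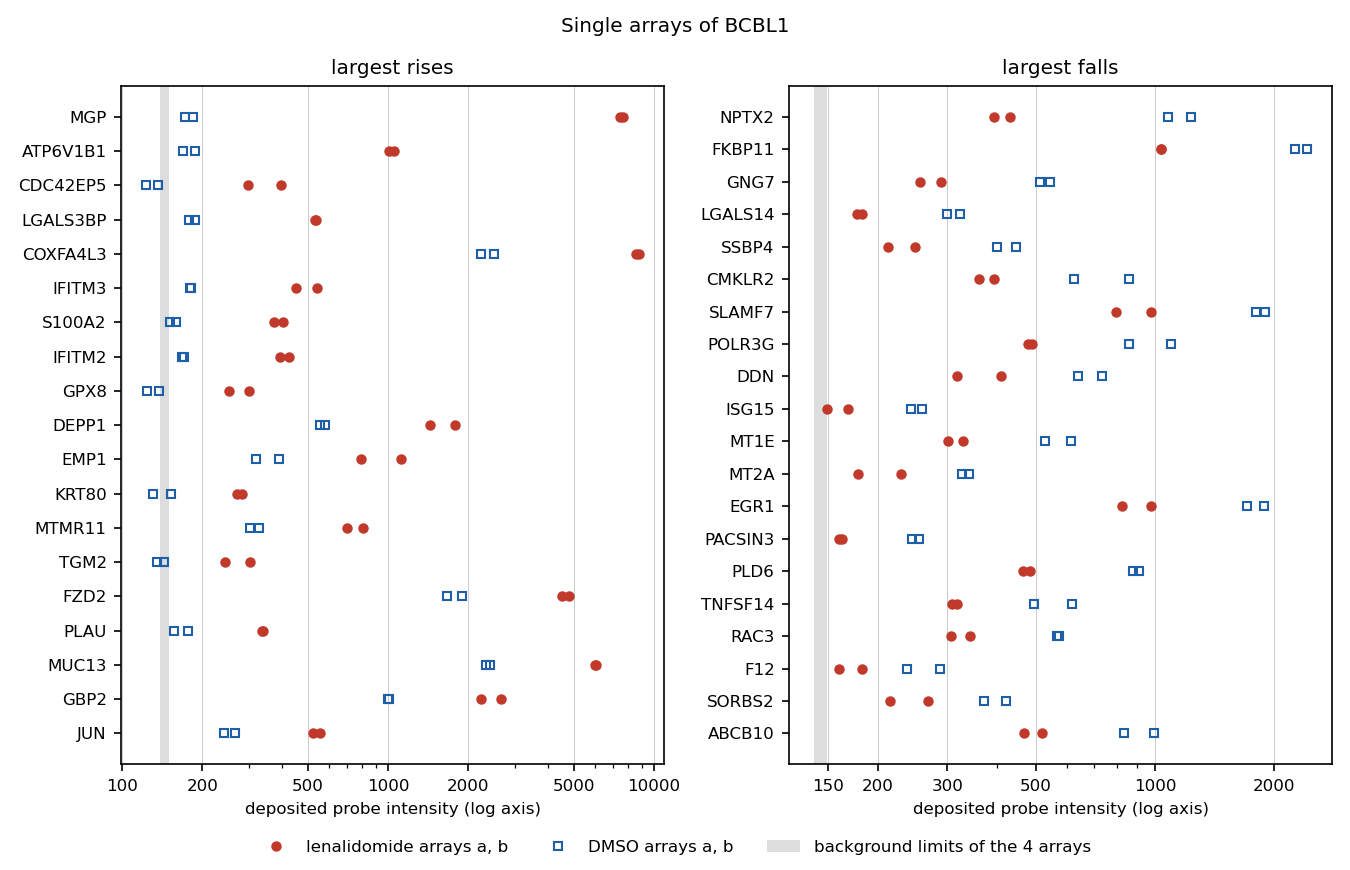
Deposited probe intensity (log axis) on each of the 4 BCBL1 arrays for 19 genes among the largest rises (left) and the 20 named genes with the largest falls (right). Filled red circles are the lenalidomide arrays, open blue squares the DMSO arrays, and the grey band spans the background limits of 138 to 149. The groups do not overlap in any of these genes, as after normalization in every called gene, and the gap is widest at MGP.

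The falls were smaller. NPTX2, a secreted pentraxin known from neurons, was the 1 gene that fell at least 2-fold. It read 394 and 432 with lenalidomide, against 1081 and 1230.4 with DMSO, and fell by 1.41 ± 0.11 on the log2 scale (limma adjusted p = 1.57e-05). GNG7, a gamma subunit of heterotrimeric G proteins, read 256 and 289.6 with lenalidomide, against 543 and 513 with DMSO, and fell by 0.96 ± 0.13. It was the 1 call among 36 tested G protein subunits and RGS regulators, or 2.78% against 2.88% of all genes. The list median of -0.021 turned to 0.0078 with cyclic loess normalization.

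LGALS14, a galectin known from placenta, read 177 and 182 with lenalidomide, against 322 and 299 with DMSO, and fell by 0.95 ± 0.12. DDN, which encodes the cytoskeletal protein dendrin, read 317 and 409 with lenalidomide, against 641 and 734 with DMSO, and fell by 0.86 ± 0.13. POLR3G, a subunit of RNA polymerase III, read 478 and 489.7 with lenalidomide, against 859 and 1095 with DMSO, and fell by 0.86 ± 0.13. In all 3 the lenalidomide arrays were the lower ones without overlap, as after normalization in every called fall. SSBP4 fell by 0.94 ± 0.15, the chemerin receptor gene CMKLR2 by 0.87 ± 0.19, PACSIN3 by 0.80 ± 0.12 and PLD6, a mitochondrial phospholipase, by 0.78 ± 0.13. RAC3 fell by 0.75 ± 0.12. F12, SORBS2 and the mitochondrial transporter gene ABCB10 fell by 0.75 ± 0.17, 0.74 ± 0.14 and 0.74 ± 0.12. CMKLR2 kept its call in 5 of the 8 fits with an array omitted, F12 in 5 of the 8, PLD6 and SORBS2 in 6 of the 8, and SSBP4, PACSIN3 and ABCB10 in all 8.

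The next question was what happened to transcripts of the drug's targets, its receptor and the factors below them. Array RNA does not measure the proteins. IKZF1 read 527 and 688 with lenalidomide, against 489 and 450.0 with DMSO, and rose by 0.61 ± 0.14 (limma adjusted p = 0.0346). That call held in 2 of the 8 fits with an array omitted. IKZF3 was dim, reading 173 and 229 with lenalidomide, against 236 and 260.4 with DMSO, and its value of -0.31 ± 0.17 did not pass (limma adjusted p = 0.399). The IKZF3 readings with lenalidomide lay under those with DMSO, array a the lowest, on arrays with lower mean intensities.

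CRBN, which encodes cereblon, read 897 and 919 with lenalidomide, against 1134 and 1121 with DMSO, a value of -0.10 ± 0.12 after normalization (limma adjusted p = 0.747). A dimmer CRBN probe gave 0.18, and the mean of both probes 0.04. IRF4 read 2651 and 3056 with lenalidomide, against 3298 and 4213 with DMSO, a value of -0.18 ± 0.16 (limma adjusted p = 0.634). Both genes read lower on the lenalidomide arrays, which had the lower mean intensities, and neither was called after normalization. MYC read 1772 and 1747 with lenalidomide, against 2337 and 2774 with DMSO, and its value of -0.32 ± 0.13 did not pass (limma adjusted p = 0.231). Its dimmer probe read 573 and 844 with lenalidomide, against 1370 and 1588 with DMSO. That probe gave -0.92 ± 0.15 (limma adjusted p = 0.00504 in a fit over all kept probes). The probes of MYC thus had the same sign but differed in whether they passed. Over all settings the value of MYC ran from -0.62 to -0.24, and it was called in 1 of 12 alternative ways of processing.

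Of 17 tested members of the cereblon ligase and its known substrates, IKZF1 and IKZF4 were called, both higher, and 0 lower; the median was 0.10 and turned to -0.015 with median scaling. IKZF4, another family member, rose by 0.48 ± 0.12. Both calls were lost without each of the 4 BCBL1 arrays in turn. The ligase subunits DDB1 and CUL4A had values of -0.13 ± 0.18 and -0.15 ± 0.12, and the substrates CSNK1A1 and GSPT1 values of 0.21 ± 0.14 and 0.25 ± 0.15. None of these 4 was called.

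Interferon-stimulated genes rose in part, with the most rises by count in 1 of the longer lists examined. Of 55 tested members 14 rose and 1 fell, or 27.3% against 2.88% of all genes, and 43 had a value above 0. The median was 0.20, and 0.12 with median scaling. LGALS3BP, a secreted glycoprotein that binds galectins, read 529 and 536 with lenalidomide, against 188 and 178 with DMSO, and rose by 2.17 ± 0.13 (limma adjusted p = 2.06e-06). IFITM3, a membrane protein that blocks virus entry, read 451 and 538 with lenalidomide, against 179.6 and 181 with DMSO, and rose by 2.07 ± 0.12 (limma adjusted p = 8.02e-07). Its near-identical relative IFITM2 rose by 1.88 ± 0.15, and the probes of these 2 genes may share signal.

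GBP2 and GBP4, guanylate-binding proteins that act on vacuoles of microbes, followed. GBP2 read 2241 and 2662 with lenalidomide, against 995 and 1007 with DMSO, a rise of 1.54 ± 0.12. GBP4 read 283 and 299 with lenalidomide, against 143 and 169 with DMSO, a rise of 1.49 ± 0.13, and its DMSO array a lay under the background limit. The other rising members spanned 0.51 at IFI35 to 1.31 at PARP9. Several classical members were not called, with values of -0.087 ± 0.13 for MX1, 0.11 ± 0.13 for IFIT1, 0.044 ± 0.13 for IFI44L, -0.13 ± 0.12 for OAS2 and 0.17 ± 0.13 for IFI6. The member that fell was ISG15, a ubiquitin-like modifier, which read 149 and 169 with lenalidomide, against 259 and 243 with DMSO. Its fall was 0.86 ± 0.15 (limma adjusted p = 0.00693) and held in 6 of the 8 fits with an array omitted. The count of rising members was 8 without either DMSO array and 9 without either lenalidomide array of BCBL1.

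None of 21 tested interferon receptors and STATs was called by limma, and their median was 0.165, and 0.015 with median scaling. An unadjusted p under 0.05 was held by 4 of them, against 2079 of all 12864 genes. Of 19 MHC class I and peptide loading genes 0 were called by limma (2 with an unadjusted p under 0.05), with a median of 0.060 that turned to -0.092 with median scaling.

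Promoters were read for the genes called, since an interferon-stimulated response element (ISRE) is the site bound by IRF and STAT complexes at such genes. RefSeq windows of GRCh38.p14 from 250 bases before to 50 bases after the start were matched for 212 of the 276 higher genes, 65 of the 94 lower genes and 10218 of all genes tested. The ISRE core, GAAA, any 2 bases and GAAA, searched on both strands, was present in 6.6% of higher, 3.08% of lower and 3.01% of all tested windows. The core of joint ETS and IRF sites, GGAA, any 2 bases and GAAA, which can overlap an ISRE, was present in 3.3%, 0% and 2.66%. The GAS core TTCNNNGAA, a site of STAT dimers, was present in 11.8%, 6.15% and 6.48%. The shares are descriptions with no test, and a match is not a bound site. The stretches below carry the ISRE matches, in capitals, of the 5 higher genes with the largest changes and of the 1 lower gene with the largest fall among those with a match before the start. They are chr17:78979952-78980001 of LGALS3BP, chr11:320866-320932 of IFITM3, chr13:42992262-42992311 of EPSTI1 and chr6:134318303-134318352 of SGK1, all on the minus strand. On the plus strand are chr11:313980-314029 of IFITM1 and chr1:1013364-1013419 of ISG15. Each reads 5′ to 3′ along its gene.
LGALS3BP: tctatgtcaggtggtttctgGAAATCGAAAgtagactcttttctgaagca
IFITM3: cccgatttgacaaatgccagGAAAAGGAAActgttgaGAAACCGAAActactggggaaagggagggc
EPSTI1: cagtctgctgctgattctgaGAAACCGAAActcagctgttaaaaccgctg
SGK1: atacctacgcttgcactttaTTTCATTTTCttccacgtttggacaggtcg
IFITM1: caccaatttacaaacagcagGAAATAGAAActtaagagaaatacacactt
ISG15: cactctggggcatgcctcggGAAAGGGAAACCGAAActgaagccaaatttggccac

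The stretches of IFITM3 and ISG15 hold 2 matches each, and the matches of ISG15 overlap. The whole window of IFITM1 holds 2, of which 1 that lies before the start is shown. ISG15 therefore carried the same letters as rising genes while its signal was lower with lenalidomide. In SGK1, a stress-induced kinase gene that rose by 1.10 ± 0.12, the match reads on the opposite strand and begins 220 bases before the start. EPSTI1 rose by 1.21 ± 0.14 and IFITM1 by 1.03 ± 0.14. These 3 genes, and FGL2 further on, are named for their windows after their values were seen.

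Antigen presentation genes of MHC class II rose in part. Of 17 tested genes 6 rose and 1 fell, or 41.2% against 2.88% of all genes. The median was 0.39, and 0.31 with median scaling. CD74, the invariant chain, read 577 and 478 with lenalidomide, against 346 and 290.3 with DMSO, and rose by 1.07 ± 0.17 (limma adjusted p = 0.00432). HLA-DRA, the alpha chain of HLA-DR, read 867 and 920.1 with lenalidomide, against 542 and 541 with DMSO, and rose by 0.99 ± 0.12 (limma adjusted p = 3.73e-04). HLA-DMA and HLA-DMB, which load peptides, rose by 0.71 ± 0.12 and 0.64 ± 0.12.

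HLA-DRB5 and HLA-DRB4 were called at 0.69 ± 0.14 and 0.65 ± 0.14, but beta chain genes are near-identical and differ between individuals, so their probes cannot be assigned with certainty. CIITA, the activator of the class, had a value of 0.21 ± 0.16, HLA-DPA1 of 0.48 ± 0.12 and HLA-DQB1 of -0.45 ± 0.14, none of them called. RFXAP, a subunit of the factor that binds class II promoters, read 300.5 and 311 with lenalidomide, against 463 and 456 with DMSO, and fell by 0.52 ± 0.12 (limma adjusted p = 0.0341). The count of 6 was 4 without lenalidomide array a, 3 when DMSO array a was left out and 2 when either b array was, and the fall of RFXAP was lost in each.

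Of 18 tested costimulatory and synapse ligands 3 rose and 0 fell, with a median of 0.078 that turned to -0.016 with median scaling. NECTIN2, a ligand of T and NK cell receptors, read 338 and 306 with lenalidomide, against 209 and 191 with DMSO, and rose by 1.10 ± 0.15. ICAM1, an adhesion ligand of LFA-1, rose by 0.58 ± 0.13, and CD86, the ligand of CD28, by 0.50 ± 0.12. The call of NECTIN2 held in all 8 fits with an array omitted, that of ICAM1 in 2 of the 8 and that of CD86 in 0 of the 8.

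Of 22 tested subunits and feedback genes of NF-kB signalling 4 rose and 0 fell, with a median of 0.061 that turned to -0.067 with median scaling. BCL3, a nuclear partner of NF-kB, read 1487 and 1791 with lenalidomide, against 838 and 812 with DMSO, and rose by 1.25 ± 0.13 (limma adjusted p = 9.94e-05). TNFAIP3, the deubiquitinase A20, rose by 0.60 ± 0.14, the nuclear regulator NFKBIZ by 0.56 ± 0.13 and the cytoplasmic inhibitor NFKBIA by 0.52 ± 0.13. These 3 changes were small, and their calls held in 3 of the 8, 1 of the 8 and 0 of the 8 fits with an array omitted. Without any 1 of the BCBL1 arrays, 1 member was called. RELA had a value of -0.19 ± 0.14, RELB of 0.059 ± 0.13 and NFKB1 of 0.068 ± 0.12.

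The NF-kB core, GGGA, any base and TTTCC on either strand, was present in the promoter windows of 5 of the 212 higher genes (2.36%), 0 of the 65 lower genes and 66 of all tested genes (0.646%). The 5 include 3 members of the list above, whose stretches are shown with the match in capitals. On the plus strand lie chr6:137867172-137867221 of TNFAIP3 and chr3:101827747-101827796 of NFKBIZ. On the minus strand lies chr14:35404801-35404850 of NFKBIA (GRCh38.p14, RefSeq).
TNFAIP3: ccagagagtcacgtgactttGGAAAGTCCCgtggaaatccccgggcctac
NFKBIZ: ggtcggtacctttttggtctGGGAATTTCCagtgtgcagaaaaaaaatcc
NFKBIA: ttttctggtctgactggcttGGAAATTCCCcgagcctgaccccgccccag

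In NFKBIA the match begins 81 bases before the start, in TNFAIP3 67 bases and in NFKBIZ 223 bases. The window of BCL3 was not among the matches, and these letters were searched in this window alone.

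Some transcription factors that set B-cell fate changed, in both directions. Of 19 tested IRF family members and fate factors 5 rose and 1 fell, with a median of 0.15, and 0.067 with median scaling. ID3 and ID2, which block E proteins, rose by 0.82 ± 0.16 and 0.62 ± 0.11. TCF3, which encodes the E proteins that ID factors bind, read 889 and 947 with lenalidomide, against 1379 and 1707 with DMSO, and fell by 0.55 ± 0.12 (limma adjusted p = 0.0291). The ID genes and TCF3 thus went opposite ways on these arrays.

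IRF9, the DNA-binding part of the interferon complex ISGF3, read 522 and 599 with lenalidomide, against 415 and 399 with DMSO, and rose by 0.72 ± 0.14. IRF1 rose by 0.61 ± 0.12. BCL6, the repressor of germinal centre B cells, was dim, reading 215 and 243 with lenalidomide, against 186 and 171 with DMSO, and rose by 0.69 ± 0.13. The plasma cell factors PRDM1 and XBP1 had values of 0.11 ± 0.18 and 0.25 ± 0.12 and were not called. Of the 5 rises, 3 were called without DMSO array a, 2 without lenalidomide array a and none without the b array of either group; TCF3 was called in none of these fits.

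Of 12 tested AP-1 subunits and partners JUN and FOSL2 rose and 0 fell, with a median of 0.012 that turned to -0.0077 with median scaling. JUN read 523 and 556 with lenalidomide, against 265 and 241 with DMSO, and rose by 1.54 ± 0.14 (limma adjusted p = 3.74e-05). FOSL2 read 258 and 239.7 with lenalidomide, against 181 and 175 with DMSO, and rose by 0.87 ± 0.14. FOS, FOSB and ATF3 had values of -0.21 ± 0.13, 0.031 ± 0.14 and -0.17 ± 0.14, and JUNB and JUND of 0.45 ± 0.12 and 0.41 ± 0.14. The counts were the same in each of the 8 fits with an array omitted. EGR1, a factor induced by the ERK pathway, went the other way from JUN: it read 825 and 979 with lenalidomide, against 1705 and 1886 with DMSO, and fell by 0.81 ± 0.13 (limma adjusted p = 0.00336). Among 22 tested genes of the growth factor and ERK response, IER5 and ZFP36 rose by 0.64 ± 0.12 and 0.52 ± 0.13, and EGR1 was the 1 that fell (median -0.018, which turned to 0.0045 with cyclic loess normalization). Without DMSO array a 1 of the 2 rises was called, and 0 without each of the other BCBL1 arrays.

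The AP-1 core TGAGTCA was present in the promoter windows of 7.08% of higher, 6.15% of lower and 3.17% of all tested genes. The stretches below show it, in capitals and on either strand, for the 5 higher genes with the largest changes among those with a match before the start, and for MT2A as the 1 lower gene. On the minus strand are chr1:153565870-153565916 of S100A2, chr3:124934903-124934949 of MUC13, chr9:127579139-127579185 of NIBAN2 and chr7:77199842-77199888 of FGL2. On the plus strand are chr12:13196531-13196577 of EMP1 and chr16:56608460-56608506 of MT2A (GRCh38.p14, RefSeq).
S100A2: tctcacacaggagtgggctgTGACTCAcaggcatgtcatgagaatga
EMP1: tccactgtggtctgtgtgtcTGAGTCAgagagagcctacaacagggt
MUC13: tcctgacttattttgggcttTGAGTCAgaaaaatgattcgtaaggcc
NIBAN2: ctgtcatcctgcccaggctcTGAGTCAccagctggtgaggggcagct
FGL2: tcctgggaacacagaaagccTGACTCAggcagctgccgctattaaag
MT2A: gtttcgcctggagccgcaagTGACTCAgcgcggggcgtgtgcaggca

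FGL2, a fibrinogen-like gene, rose by 1.04 ± 0.13. NIBAN2 rose by 1.34 ± 0.17 on its brightest probe, while dimmer probes gave 0.32 and -0.25. Other motifs were less frequent or about as frequent in higher genes as in all tested genes: the E-box CACGTG bound by MYC was present in 6.6% of higher, 3.08% of lower and 9.93% of all windows, and the IKZF core TGGGAA in 22.6%, 15.4% and 22.4%. The median GC content of the windows was 62.8%, 68.7% and 64.3%.

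Of 9 tested Kruppel-like factors 3 rose and 0 fell, with a median of 0.36, and 0.20 with median scaling. KLF6, an immediate-early member, read 304 and 325 with lenalidomide, against 218 and 256 with DMSO, and rose by 0.73 ± 0.13. KLF2, a factor of lymphocyte quiescence and among the brightest genes called, read 12838 and 13364 with lenalidomide, against 10863 and 11012 with DMSO, and rose by 0.48 ± 0.11 (limma adjusted p = 0.0379). KLF9, which glucocorticoids induce, rose by 0.54 ± 0.12. These calls rested on single arrays: 1 of the 3 held without DMSO array b and 0 without each of the other BCBL1 arrays, and 1 held without each BC3 DMSO array.

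Of 9 tested keratins and mucins, proteins known from epithelia, 4 rose and 0 fell, with a median of 0.41, which was 0.395 with median scaling and 0.17 without BC3 DMSO array a, and all 4 were called in each of the 8 fits with an array omitted. MUC13, a transmembrane mucin, was already bright and read 6010.5 and 6080.0 with lenalidomide, against 2328 and 2421 with DMSO. It rose by 1.58 ± 0.12 (limma adjusted p = 1.04e-05). MUC1 read 2681 and 2769 with lenalidomide, against 1589 and 1844 with DMSO, and rose by 0.91 ± 0.14. KRT8, the partner of KRT18 in simple epithelia, read 329 and 361 with lenalidomide, against 174 and 179 with DMSO, and rose by 1.49 ± 0.11. KRT80 read 271 and 283 with lenalidomide, against 130.2 and 153 with DMSO, where array a lay under the background limit, and rose by 1.64 ± 0.13. KRT18 had a value of 0.11 ± 0.13 and was not called.

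EMP1, an epithelial membrane protein, read 794 and 1114 with lenalidomide, against 318 and 389 with DMSO, and rose by 1.78 ± 0.22. CDH1, which encodes E-cadherin, read 148 and 173 with lenalidomide and was not above background with DMSO (132 and 133); it rose at least 1.25-fold, a call that held in 2 of the 8 fits with an array omitted. Of 12 epithelial, stromal and endothelial markers, a list that holds KRT8 and CDH1, 4 were above background on both arrays of each group, and the summed intensity was 1914 and 1989 with lenalidomide, against 1837 and 1824 with DMSO. The endothelial and stromal markers VWF, CDH5 and PDGFRB and the keratin gene KRT19 were not above background on any array. The part of other cells in these rises was not tested.

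Of 12 tested S100 genes, small calcium-binding proteins, 3 rose and 0 fell, with a median of 0.30, and 0.18 with median scaling. S100A2 read 372 and 402 with lenalidomide, against 159.8 and 151 with DMSO, and rose by 2.00 ± 0.13 (limma adjusted p = 3.47e-06). S100A10, the partner of annexin A2, was bright at 3788 and 3998 with lenalidomide, against 2346 and 2054 with DMSO, and rose by 1.05 ± 0.13. S100A16, not above background with DMSO, rose at least 1.64-fold. S100A8 and S100A9, the calprotectin subunits of myeloid cells, had values of -0.15 ± 0.15 and 0.53 ± 0.14 and were not called. Of 12 myeloid markers 4 were above background on both lenalidomide arrays and 3 on both DMSO arrays, LYZ, FCGR1A, ELANE and S100A12 on none, and the list summed to 1805 and 1888 with lenalidomide, against 1903 and 1981 with DMSO. All 3 S100 rises were called in the fits with an array omitted, apart from that of S100A16 without lenalidomide array b.

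Of 29 tested matrix and vitamin K dependent proteins 6 rose and 0 fell, MGP among them, with a median of 0.012 that turned to -0.046 with median scaling. PROS1 and GAS6, vitamin K dependent ligands of TAM receptors, rose by 0.78 ± 0.12 and 0.70 ± 0.12. GAS6 read 1226 and 1309 with lenalidomide, against 897 and 953 with DMSO. The enzymes that carry out the vitamin K reaction, GGCX and VKORC1, had values of 0.12 ± 0.13 and -0.23 ± 0.12 and were not called. LAMB3, a chain of laminin-332, rose by 0.70 ± 0.14. ADAM19 rose at least 1.48-fold, and SLPI, a protease inhibitor, by 0.53 ± 0.13 at an adjusted p of 0.0499 by limma. Of the 6 rises, 3 were called without each of the BCBL1 arrays in turn. TGM2, a transglutaminase that links matrix proteins, read 244 and 303 with lenalidomide and was not above background with DMSO (135 and 143), a rise of at least 2.79-fold.

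The cytoskeleton list of 43 tested genes had 3 rises and 0 falls, with a median of 0.10, and 0.0041 with median scaling. S100A10 was one of them. LMNA, which encodes lamins A and C of the nuclear lamina, read 923 and 1096 with lenalidomide, against 571 and 626 with DMSO, and rose by 1.02 ± 0.14. VCL, which encodes the adhesion protein vinculin, read 942 and 1235 with lenalidomide, against 609.6 and 717 with DMSO, and rose by 0.98 ± 0.14. In all 8 fits with an array omitted these 3 genes were called.

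Complement genes rose in part: of 14 tested genes 3 rose and 0 fell, with a median of 0.18, and 0.15 with median scaling. CFI, the protease that inactivates C3b, read 2339 and 3088 with lenalidomide, against 1172 and 1258 with DMSO, and rose by 1.38 ± 0.13 (limma adjusted p = 4.77e-05). CFB, the protease of the alternative pathway, read 264 and 261 with lenalidomide, against 170.5 and 179 with DMSO, and rose by 1.02 ± 0.12. C3AR1, a receptor of C3a, rose by 0.75 ± 0.15 from a level above background on 1 of the 2 DMSO arrays. The surface regulator CD55 had a value of -0.60 ± 0.17 and was not called.

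Of 27 tested interleukins, growth factors and their receptors 2 rose and 1 fell, or 11.1% against 2.88% of all genes, with a median of 0.0075 that turned to -0.0075 with median scaling. IL7, a growth factor of lymphocytes, read 307 and 308 with lenalidomide, against 190.4 and 203 with DMSO, and rose by 1.06 ± 0.13. IL13RA1, a chain of the receptors for IL-13 and IL-4, read 1698 and 2124 with lenalidomide, against 1107 and 1098 with DMSO, and rose by 1.04 ± 0.13. VEGFB fell by 0.51 ± 0.12, a call lost in all 8 fits with an array omitted.

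Of 23 chemokines and receptors CCL5 rose by 0.58 ± 0.13 and CMKLR2 fell (median 0.17, and 0.10 with median scaling). CCL5 was held in 2 of the 8 fits with an array omitted. Of 23 tested members of the TNF superfamily 1 rose and 2 fell. TNFRSF1A, the main TNF receptor, rose by 0.76 ± 0.12. The ligand TNFSF14, known as LIGHT, read 308 and 318 with lenalidomide, against 497 and 619 with DMSO, and fell by 0.77 ± 0.13. The other fall was TNFRSF17, a plasma cell marker. The call of TNFSF14 held in 6 of the 8 fits with an array omitted. That list had a median of 0.019, which turned to -0.015 with median scaling. Of 10 galectins and galectin binders LGALS3 rose by 0.66 ± 0.14 beside LGALS3BP, and LGALS14 fell (median 0.19, and 0.055 with median scaling). The rise of LGALS3 was called in 7 of 12 alternative ways of processing. CD2, an adhesion receptor of T and NK cells, read 434 and 492 with lenalidomide, against 302 and 302 with DMSO, and rose by 0.93 ± 0.12. It was the 1 T and NK cell marker of 10 above background on all 4 arrays, and CD3D, CD3E, CD8A, NKG7 and GNLY were above background on none. The list summed to 1562 and 1694 with lenalidomide, against 1522 and 1534 with DMSO.

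**Figure D3:**
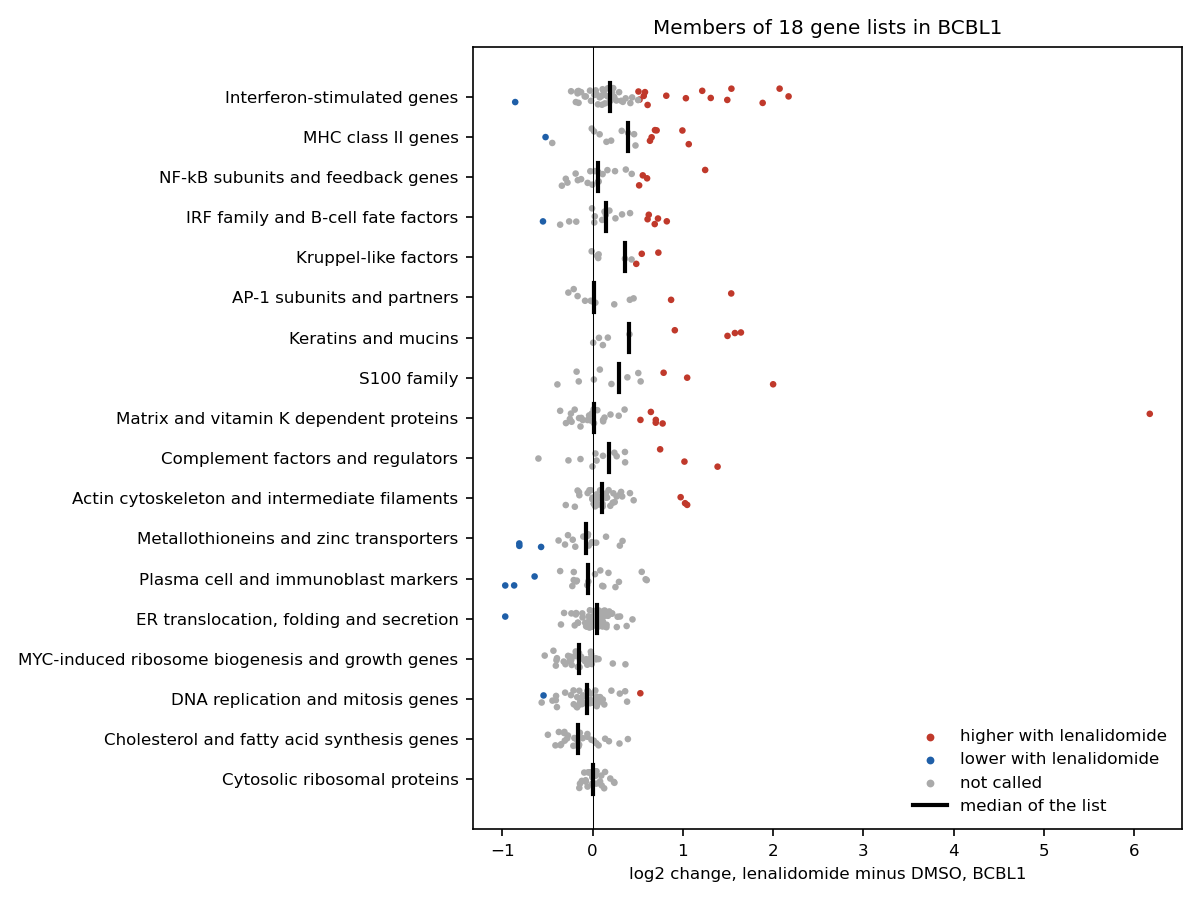
Change with lenalidomide in BCBL1 (log2, horizontal axis) of every tested member of 18 gene lists, 1 list a row, with scatter added in the vertical direction alone. Red points are called higher, blue points called lower and grey points not called, and black bars give list medians, which run from -0.165 for cholesterol and fatty acid synthesis to 0.408 for keratins and mucins.

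Markers of the plasma cell fell in part. Of 21 tested markers of plasma cells and immunoblasts, 3 fell and 0 rose, with a median of -0.047, which was -0.060 with median scaling and turned to 0.046 with cyclic loess normalization. FKBP11, a peptidyl-prolyl isomerase of the endoplasmic reticulum in secretory cells, read 1035 and 1038 with lenalidomide, against 2255 and 2420.2 with DMSO, and fell by 0.97 ± 0.12 (limma adjusted p = 5.12e-04). SLAMF7, a surface receptor that is an antibody target in myeloma, read 977 and 798 with lenalidomide, against 1800.1 and 1897 with DMSO, and fell by 0.87 ± 0.16. TNFRSF17, the receptor BCMA, read 909.9 and 987 with lenalidomide, against 1707 and 1692 with DMSO, and fell by 0.64 ± 0.12. Both surface receptors were lower on each lenalidomide array than on either DMSO array, as after normalization was every called fall.

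The list as a whole did not move one way: CD38, ELL2 and PIM2 had values of 0.60 ± 0.16, 0.59 ± 0.15 and 0.54 ± 0.18, none of them called, and JCHAIN of -0.047 ± 0.13. The call of FKBP11 held in all 8 fits with an array omitted, that of SLAMF7 in 5 of the 8 and that of TNFRSF17 in 4 of the 8. The number of falls was 2 without lenalidomide array a and 1 without each of the other BCBL1 arrays. Of 62 tested genes of protein translocation, folding and secretion, FKBP11 was the 1 called, with a list median of 0.052 that turned to -0.109 with median scaling. The 8 plasmablast markers summed to 14581 and 15605 with lenalidomide, against 17898 and 18643 with DMSO, in deposited intensity. The mean intensity of all probes was also lower with lenalidomide, at 603 and 631, against 685 and 717 with DMSO. These sums are therefore not read as a change of the markers.

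Some metallothioneins, small proteins that bind zinc and copper, fell. Of 18 tested metallothioneins and zinc transporters 3 fell and 0 rose, with a median of -0.078, and -0.25 with median scaling. MT1E read 329 and 300.1 with lenalidomide, against 613 and 528 with DMSO, and fell by 0.81 ± 0.15. MT2A read 229 and 179 with lenalidomide, against 326 and 339 with DMSO, and fell by 0.81 ± 0.18. MT1X read 272 and 289 with lenalidomide, against 413 and 444 with DMSO, and fell by 0.57 ± 0.11. In each the lenalidomide arrays were the lower ones, as after normalization in every called fall. Probes for such near-identical genes may share signal. MT1G had a value of -0.050 ± 0.14, and MTF1, the zinc sensor that drives these genes, of -0.22 ± 0.13. Leaving out lenalidomide array a kept 2 of the 3 falls called, and DMSO array b 1, while none was called without lenalidomide array b or DMSO array a.

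Cell cycle and stress genes gave a mixed picture. CDKN1A, the kinase inhibitor p21, was bright at 4755 and 5314 with lenalidomide, against 3030.4 and 2496 with DMSO, and rose by 1.10 ± 0.14 (limma adjusted p = 5.74e-04). GADD45A read 1874 and 2101 with lenalidomide, against 963 and 1206 with DMSO, and rose by 1.12 ± 0.12. RRM2B, a subunit of ribonucleotide reductase, rose by 0.61 ± 0.13, a call kept in 7 of 12 alternative ways of processing. The calls of GADD45A and CDKN1A were kept in all 12. With these 3 of 21, and 0 lower, the list of p53 target genes had a median of 0.13, and 0.089 with median scaling. CDKN1A was also the 1 call of 15 cell cycle inhibitors and D-type cyclins (median -0.070).

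DDIT4, an inhibitor of mTORC1, read 1389 and 1486 with lenalidomide, against 695 and 719.9 with DMSO, and rose by 1.29 ± 0.11. It and GADD45A were the 2 calls among 35 genes of the response to amino acid shortage and stress, or 5.71%. The median of that list, 0.074, turned to -0.037 with median scaling. Of 46 genes of DNA replication and mitosis 4.35% were called, against 2.88% of all genes. E2F2 rose by 0.53 ± 0.12 and GINS2, part of the replicative helicase, fell by 0.54 ± 0.13. The list median was -0.066, and -0.217 with median scaling against -0.105 for all genes. MKI67 and TOP2A had values of 0.043 ± 0.14 and -0.024 ± 0.12, and E2F1 of -0.56 ± 0.25. The call of E2F2 held in 2 of the 8 fits with an array omitted and that of GINS2 in 1 of the 8.

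None of 37 MYC-induced genes of ribosome biogenesis and growth was called by limma. An unadjusted p under 0.05 was held by 7 of them, against 2079 of all 12864 genes. Of the 37, 6 had a value above 0. The median was -0.15, and -0.31 with median scaling, against -0.105 for all genes. With median scaling 3 were called lower, against 176 of all genes tested. NCL, POLR1B and ODC1 had values of -0.39 ± 0.13, -0.53 ± 0.16 and -0.43 ± 0.13. Of 29 genes that make cholesterol and fatty acids 0 were called by limma. An unadjusted p under 0.05 was held by 10 of them, against 2079 of all 12864 genes. Of the 29, 7 had a value above 0. The median was -0.165, and -0.27 with median scaling, where 2 were called lower, against 176 of all genes tested. HMGCS1 and SQLE had values of -0.31 ± 0.12 and -0.41 ± 0.12. For comparison, the medians of 30 cytosolic ribosomal proteins and 18 histone genes were 0.0058 and 0.048, with 0 called by limma in either (0 and 2 with an unadjusted p under 0.05), and both turned negative with median scaling, to -0.14 and -0.076.

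In glycolysis, the glucose transporter gene SLC2A3 read 1843 and 1968 with lenalidomide, against 1044 and 1134 with DMSO, and rose by 1.05 ± 0.14. NDRG1, which hypoxia induces, rose by 0.55 ± 0.11, and the hexokinase gene HK2 read 819.5 and 882 with lenalidomide, against 1234 and 1591 with DMSO, and fell by 0.54 ± 0.12. NDRG1 kept its call in 4 of the 8 fits with an array omitted and HK2 in 1 of the 8. These were the 3 calls of 30 glycolysis and hypoxia genes, whose median was -0.12. SMOX, the oxidase that breaks down spermine, read 631 and 756 with lenalidomide, against 303 and 324 with DMSO, and rose by 1.51 ± 0.12. EIF5A, the factor that carries hypusine made from spermidine, rose by 0.59 ± 0.13, a call kept in 3 of the 8 fits with an array omitted, and no other of 20 polyamine genes was called (median -0.024, which turned to 0.020 with cyclic loess normalization). MCL1 rose by 0.53 ± 0.12 as the 1 call of 23 genes of the BCL2 family and its relatives (median 0.10, and -0.0085 with median scaling), a call lost in all 8 fits with an array omitted. Of 41 lysosomal genes 0 were called by limma (median 0.12, and 0.020 with median scaling). An unadjusted p under 0.05 was held by 7 of them, against 2079 of all 12864 genes. Of 23 genes responsive to TGF-beta, Notch and Wnt, ENG fell by 0.50 ± 0.12 (median -0.064), a call lost in all 8 fits with an array omitted. Of 28 integrins and adhesion molecules CDH1 was the 1 called (median 0.088, which turned to -0.040 with median scaling). That call was 3.57% of its list, and those of MCL1 and ENG 4.35% of theirs, against 2.88% of all genes.

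Some genes crossed the background limit. Of the 276 higher genes, 20 were not above background on either DMSO array and 13 on 1 of them. Of the 94 lower genes, 11 were not above background on either lenalidomide array. CDC42EP5, an effector of CDC42, read 298 and 396 with lenalidomide and was not above background with DMSO (136 and 123). It rose at least 3.78-fold (limma adjusted p = 1.57e-05), the largest of these bounds among the genes named. Beside it, TGM2 and S100A16, the genes that appeared included GPX8, a peroxidase of the endoplasmic reticulum, which read 252 and 299 with lenalidomide, against 124 and 137 with DMSO, a rise of at least 2.84-fold. NFE2, a factor of blood cell genes, rose at least 2.06-fold, TMEM270 at least 1.66-fold, PSAPL1 at least 1.35-fold, IER5L at least 1.41-fold and HSD11B1, the enzyme that regenerates cortisol, at least 1.26-fold. With an array omitted, PSAPL1 kept its call in 2 of the 8 fits, IER5L and HSD11B1 in 5 of the 8 each, and GPX8, NFE2 and TMEM270 in all 8. Among the genes that went under the limit were PTGER2, a prostaglandin receptor, at least 1.38-fold lower, UNC13C at least 1.35-fold, ATP1B2 at least 1.17-fold and CHRNA3 at least 1.03-fold lower. The call of PTGER2 held in 2 of the 8 fits with an array omitted, and those of UNC13C, ATP1B2 and CHRNA3 in 5 of the 8 each. Each bound is set against the dimmest probes above background, and not against 0.

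Several rising genes were neighbours. After a higher gene, the next tested gene along the RefSeq order was also higher in 7.61% of cases, against 2.15% of all genes; after a lower gene, it was lower in 2.13%, against 0.731%. Runs of 3 were GBP1, GBP2 and GBP4 and also ASAP3, E2F2 and ID3 on chromosome 1, IFITM2, IFITM1 and IFITM3 on chromosome 11, and CCN4, NDRG1 and ST3GAL1 on chromosome 8. On chromosome 6 HLA-DRA, HLA-DRB5 and HLA-DRB6 formed another. Pairs included S100A2 and S100A16, BCL3 and NECTIN2, PLAU and VCL, and, among lower genes, MT2A and MT1E. Probes of related neighbours may share signal, while ASAP3, E2F2 and ID3 are not members of one family. Genes of these runs that are named nowhere else were named by position, after their values were seen.

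A gene was read by its brightest probe, and other probes were compared. Of the called genes, 118 had several kept probes, with 157 further probes, of which 133 had the same sign and 42 were also called. In 22 genes a further probe had the opposite sign. CYTOR, a long non-coding RNA, was the 1 gene with called probes of both signs: -0.64 ± 0.14 on the brightest and 0.74 on a dimmer probe, so that its direction is not settled. CASP4 was called at 0.59 ± 0.13, beside a dimmer probe at -0.53, CPSF2 at 0.93 ± 0.18, beside -0.10, and APOL3 at 0.98 ± 0.12, beside -0.056. COXFA4L3 had 3 called probes and LMNA and HLA-DRA 2 each, with the same sign within each gene.

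The effect of lenalidomide was then compared with that in BC3, which has its own DMSO arrays. In BC3 562 genes were called (4.37%). Of the 370 genes called in BCBL1, 164 were called in the same direction in BC3, 135 higher and 29 lower, which is 44.3% of the BCBL1 calls and 29.2% of the BC3 calls; 2 were called in opposite directions. The test of the difference itself called 63 genes (0.49%), of which 24 were called in BCBL1. In 16 of the 24 the rise in BCBL1 exceeded the value in BC3, in 6 it fell short of it, and in 2 a fall in BCBL1 stood against a value above 0 in BC3.

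ATP6V1B1 stood apart most, with 3.27 ± 0.14 in BCBL1 and 0.36 ± 0.14 in BC3, a difference of 2.91 ± 0.19 (limma adjusted p = 1.79e-05). MGP rose in both lines, by 6.17 ± 0.13 in BCBL1 and 3.54 ± 0.13 in BC3, and the difference was 2.63 ± 0.18 (limma adjusted p = 1.79e-05). FZD2 had 1.61 ± 0.13 in BCBL1 and 0.0067 ± 0.13 in BC3, a difference of 1.60 ± 0.18. For FZD2 the rise was thus found in BCBL1 while BC3 gave a value near 0. TGM2 had 1.63 ± 0.15 in BCBL1 and 0.24 ± 0.15 in BC3, and ABCA1, the cholesterol exporter, 1.36 ± 0.13 in BCBL1 and 0.035 ± 0.13 in BC3. CCN4, a matrix signalling protein, had 1.14 ± 0.12 in BCBL1 and -0.086 ± 0.12 in BC3, and ARL14EPL 1.35 ± 0.15 in BCBL1 and -0.12 ± 0.15 in BC3. NOC3L and TUBB3 had values of opposite sign in the lines, each called in both. NOC3L had 0.70 ± 0.15 in BCBL1 and -0.78 ± 0.15 in BC3 (limma adjusted p = 0.0269 and 0.0106). TUBB3 had 0.62 ± 0.14 in BCBL1 and -0.60 ± 0.14 in BC3 (limma adjusted p = 0.0321 and 0.0264). The BCBL1 rise of NOC3L was called in 7 of 12 alternative ways of processing.

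Other genes rose less in BCBL1. COXFA4L3 had 2.12 ± 0.13 in BCBL1 and 4.27 ± 0.13 in BC3, a difference of -2.15 ± 0.19 (limma adjusted p = 1.11e-04). MUC1 had 0.91 ± 0.14 in BCBL1 and 3.05 ± 0.14 in BC3, a difference of -2.14 ± 0.20. SLPI had 0.53 ± 0.13 in BCBL1 and 2.10 ± 0.13 in BC3, and CFB 1.02 ± 0.12 in BCBL1 and 1.98 ± 0.12 in BC3. GSDMB, a gasdermin, had 0.52 ± 0.12 in BCBL1 and 1.85 ± 0.12 in BC3. Dimmer GSDMB probes gave 0.10 and -0.26 in BCBL1, and 1.56 and 0.15 in BC3. GPBAR1, a bile acid receptor, had 0.60 ± 0.11 in BCBL1 and 1.64 ± 0.11 in BC3. Among 12 alternative ways of processing, the BCBL1 rises of SLPI and GSDMB were called in 5 each. That of GPBAR1 was called in 7, that of MUC1 in 10, and those of COXFA4L3 and CFB in all 12. EGR1 had -0.81 ± 0.13 in BCBL1 and 0.42 ± 0.13 in BC3, a difference of -1.22 ± 0.18 (limma adjusted p = 0.00718), and was not called in BC3. The number of differing genes ran from 25 to 46 over the 8 fits with an array omitted. It was 25 without BC3 DMSO array a, BC3 lenalidomide array b or BCBL1 lenalidomide array a, 29 without BCBL1 lenalidomide array b, 32 without BC3 DMSO array b and 34 without BCBL1 DMSO array a.

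**Figure D4:**
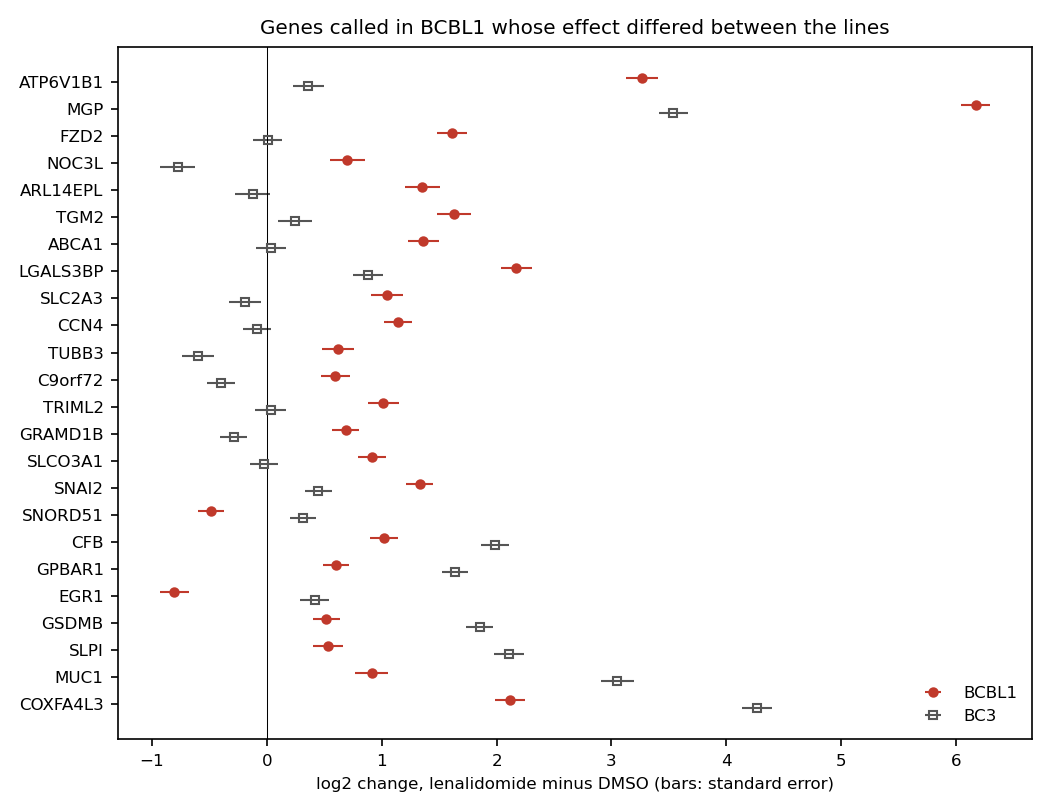
Change with lenalidomide (log2, horizontal axis) in BCBL1 (filled red circles) and BC3 (open grey squares) for the 24 genes called in BCBL1 whose effect differed between the lines, ordered by the difference. Bars are standard errors of the limma fit (n = 2 arrays a group); ATP6V1B1 at the top differs by 2.91 and COXFA4L3 at the bottom by -2.15.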

How the data were processed

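RNA of BCBL1 and BC3 cells was hybridised to 1-colour Illumina bead arrays. The authors deposited 2 tables: a linear intensity per probe and array, not normalized between arrays, and normalized log2 values, whose offset is not stated. Per the submitters' processing notes limma was used, with no version given. The log2 table has the same quantiles in every column, with a median of 4.91, and each intensity array had a rank correlation of 1 with the log2 column of its group, against at most 0.856 with any other column. Arrays were grouped by line and treatment from the column names, and a and b follow column order.

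The intensities were taken through normexp background correction (offset 50), log2 and quantile normalization in limma 3.58.1 (R 4.3.3). Of 47323 probes, 1 read 0 and was left out. The table holds no detection p-values, so a background limit was rebuilt per array from the spread of signals below the mode (upper tail of 0.05), a rule set after the tables were seen. The 24523 probes (51.8%) above it on both arrays of any group were kept. GEO's platform annotation gave 30113 probes 1 symbol and 8 several; 30074 were updated through RefSeq gene identifiers and 39 kept as annotated. Each of 12864 genes was read by its brightest kept probe. A model with 4 group means was fitted to all 8 arrays (residual 4 degrees of freedom, prior 8.77), and called means a Benjamini-Hochberg adjusted p under 0.05 over all genes. An "at least" fold is set against the dimmest probes above background where both arrays of a group were below it. The number of arrays limits the precision. Same-numbered arrays did not deviate together (r from -0.076 to 0.0458), so no block was used.

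Genes were named by rule: 5 genes of the drug's pathway, the 20 largest called changes each way, up to 5 called genes per list and direction, genes crossing the background limit, the largest differences between lines and conflicting probes. Other genes are named by window, position or list, after their values were seen. The comparison, the 46 gene lists and the rule were chosen with earlier results of these data known. Some members, a gene list and some promoter stretches are not reported here.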

Additional observations from a re-analysis of the deposited data

Results flagged for a closer look

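The effect of lenalidomide differed between BCBL1 and BC3, by limma's test of the difference across all genes (63 genes, 0.49%), in 24 genes called in BCBL1. The differences, BCBL1 minus BC3 on the log2 scale, were above 0 in 16 genes: 2.91 for ATP6V1B1, 2.63 for MGP, 1.60 for FZD2, 1.48 for NOC3L, 1.48 for ARL14EPL, 1.39 for TGM2, 1.33 for ABCA1, 1.29 for LGALS3BP, 1.24 for SLC2A3, 1.23 for CCN4, 1.22 for TUBB3, 1.00 for C9orf72, 0.98 for TRIML2, 0.97 for GRAMD1B, 0.94 for SLCO3A1 and 0.88 for SNAI2. They were below 0 in 8 genes: -0.80 for SNORD51, -0.97 for CFB, -1.03 for GPBAR1, -1.22 for EGR1, -1.34 for GSDMB, -1.57 for SLPI, -2.14 for MUC1 and -2.15 for COXFA4L3. With 2 technical arrays a group the test does not include the spread between cultures, and the part of culture differences was not tested.

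Signals past the threshold also appeared in probes that no gene comparison used. Of 6946 kept probes without a single gene symbol, 59 passed in BCBL1, 38 higher and 21 lower, or 0.849%, against 2.05% of the kept probes with 1 symbol.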

How the results depend on the processing

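The counts of genes higher, lower and differing between the lines were 276, 94 and 63. They were 154, 40 and 21 with an offset of 16, 172, 47 and 30 on the authors' log2 values, and 89, 8 and 25 when a change of more than 1.2-fold was tested with treat. Median scaling gave 141 higher and 176 lower, so that 44.5% were higher against 74.6%. The share higher was 79.4% with cyclic loess and 84.7% with the replicate number as a block, fitted on the authors' log2 values, whose columns carry that number, which gave 122, 22 and 9. The lower count was 146 without background correction, 62 without a filter on dim probes, 56 on the 4 BCBL1 arrays alone and 142 with trended robust moderation. Leaving out 1 array gave 126 to 248 higher, 23 to 74 lower and 25 to 46 differing genes, where the lone array was assumed to vary like the others. Of 125 called genes named by rule, 46 kept their call under all 12 alternatives and 45 also in all 8 fits without an array; IKZF1 kept it in 5 of the 12. Averaging probes reversed CRBN to 0.04 and CYTOR to 0.12, since their probes differ in sign. The cause of the other shifts was not tested. Signal over background limits dim genes, whose folds are bounds.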
